A study of Mus musculus with 4 samples.

Results

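The Hox cluster genes of the mouse were measured in brain and in mandible and maxilla, from FoxO6-/- and WT animals, on Affymetrix mouse 3' expression arrays. Members are the genes whose annotated symbol is Hox followed by a cluster letter and a paralog number and that have a probe set of 1 gene, and they were taken by name and not by their values. There were 33 of them among 18193 genes with such a probe set, each represented by its brightest probe set, and Hox genes without such a probe set were not analysed here. Each tissue and genotype had 1 array, 4 in all, and the methods state a pool of 4 animals for mandible and maxilla RNA without naming brain. The tissues had been cut apart by hand from the head. In the mutant allele a LacZ and neomycin cassette replaced the FoxO6 gene in embryonic stem cells of C57BL/6 mice, and the line was kept on that background. According to the methods the mutant pool also held heterozygous animals, and the labels give postnatal day 0 for all arrays where the paper names a stage shortly before birth for mandible and maxilla. FoxO6 itself was not analysed here, and the genotype of the arrays could not be read from its signal.

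Hox genes encode homeodomain transcription factors and lie in 4 clusters, in which genes with low paralog numbers are used in the anterior part of the body axis and genes with high numbers further back. In the embryonic head the hindbrain and the arches behind the first use the anterior genes, whereas the forebrain, the midbrain and the neural crest of the first pharyngeal arch, which builds most of the mandible and maxilla, do without them. HOX proteins bind DNA together with PBX, MEIS and PKNOX cofactors, and retinoic acid sets their anterior limits.

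The tissue labels were checked against marker genes on the same arrays. All 12 neuronal genes were higher in brain. Of 13 measured forebrain genes, 5 were called higher in brain and 0 higher in mandible and maxilla by the fit described below. Among these 13, the cortical factor Neurod6 had signals of 3942 in FoxO6-/- and 3222 in WT brain. It had 1.57 and 2.0 in mandible and maxilla. Emx2 and Otx1 leaned the other way, with log2 ratios of mandible and maxilla over brain of 0.20 and 1.15. Dspp, a dentin matrix gene, had 2346 and 1597 in mandible and maxilla and 2.94 and 1.98 in brain. The brain arrays also carried genes of other head and neck tissues, with 9307 and 11231 for the bone collagen gene Col1a1 and 7620 and 8894 for the muscle myosin gene Myh8. Some markers of neck tissue stood apart on the WT brain array, where the brown fat gene Ucp1 had 8381 against 405 on the FoxO6-/- brain array, the thyroid gene Tg 626 against 28.8 and the parathyroid hormone gene Pth 668 against 10.1. Summed over 10 brown fat genes, the signal was 74366 on the WT and 13090 on the FoxO6-/- brain array, against 11134 (FoxO6-/-) and 9970 (WT) in mandible and maxilla. The sum over 10 genes of thyroid, parathyroid and thymus was 1516 on the WT brain array and between 354 and 409 on the other arrays, but without Tg and Pth the other 8 genes summed to 221 on the WT and 349 on the FoxO6-/- brain array. Genes of the airway went the other way, with a sum over 10 genes of 9714 on the FoxO6-/- and 3778 on the WT brain array. In mandible and maxilla this sum was 9306 (FoxO6-/-) and 18710 (WT), so that these genes do not mark the brain samples. Scgb3a2 among them was nevertheless highest on the WT brain array. Of 9 measured genes of spinal cord and peripheral ganglia, 4 were called higher in brain and 0 higher in mandible and maxilla. Their median log2 ratio of mandible and maxilla over brain was -1.79, and 8.72% of all genes were called higher in brain. The share of the brain signal of Hox genes that comes from neck tissue, spinal cord or ganglia was not tested.

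**Figure D1:**
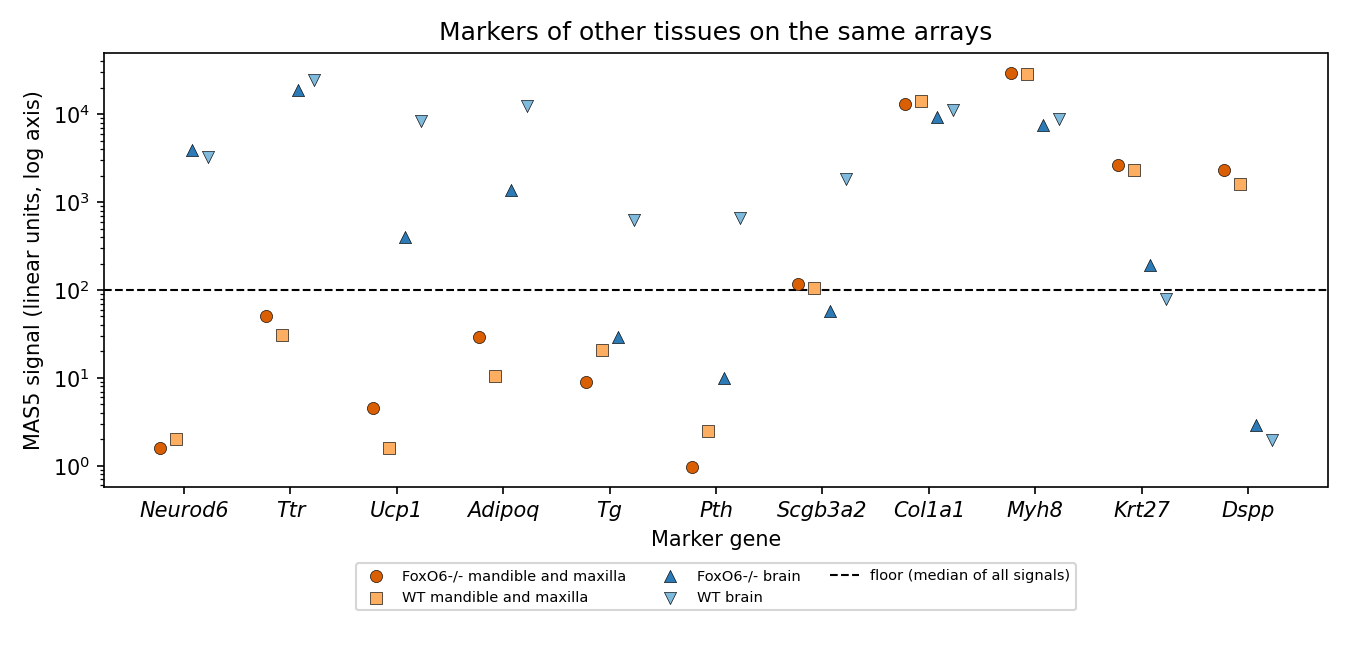
MAS5 signal (vertical axis, linear units on a log axis) of 11 marker genes (horizontal axis) on each of the 4 arrays, 1 point per array, with the floor as a dashed line. Ucp1, Adipoq, Tg, Pth and Scgb3a2 were highest on the WT brain array, and Neurod6 was high on both brain arrays and near 0 in mandible and maxilla.

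Most Hox genes had a low signal in both tissues. Values are MAS5 signals in linear units, and the median of all signals, 101, was used as a floor that marks dim values and is not a detection call. Below the floor on all 4 arrays were 21 of the 33 Hox genes (26.7% of all genes were), and 7 had a mean at or above it. In mandible and maxilla 3 Hox genes (Hoxd8, Hoxd9 and Hoxc13) were at or above the floor on both arrays, where 64.8% of all 18193 genes were. In brain 8 Hox genes were, against 65.6% of all genes. Of 13 measured Dlx and other transcription factor genes of the first arch, 11 were at or above the floor on both mandible and maxilla arrays and 10 on both brain arrays. Of these 13 genes 4 were called higher in mandible and maxilla, among them Alx1 with 1399 and 1302 against 256 and 120 in brain, and 2 higher in brain, Dlx1 with 1010 and 882 against 168 and 158 and Lhx6.

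The genes that were higher in brain were mostly those with low paralog numbers. Of the 8 Hox genes at or above the floor on both brain arrays, 7 belonged to paralog groups 2 to 5, and the remaining one was Hoxd8. Levels of different probe sets are not on one scale, so that the tissues were compared gene by gene. Both brain arrays were above both mandible and maxilla arrays for 12 of the 13 genes of groups 1 to 5 and for 2 of the 20 of groups 6 to 13, a pattern that 26.0% of all genes had. The opposite order was found for 1 and 4 genes, and for 32.2% of all genes. The boundary after group 5 was drawn with the values known, and 5 of the 13 and 16 of the 20 genes were below the floor on all arrays, so that these counts are a description with no test.

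**Figure D2:**
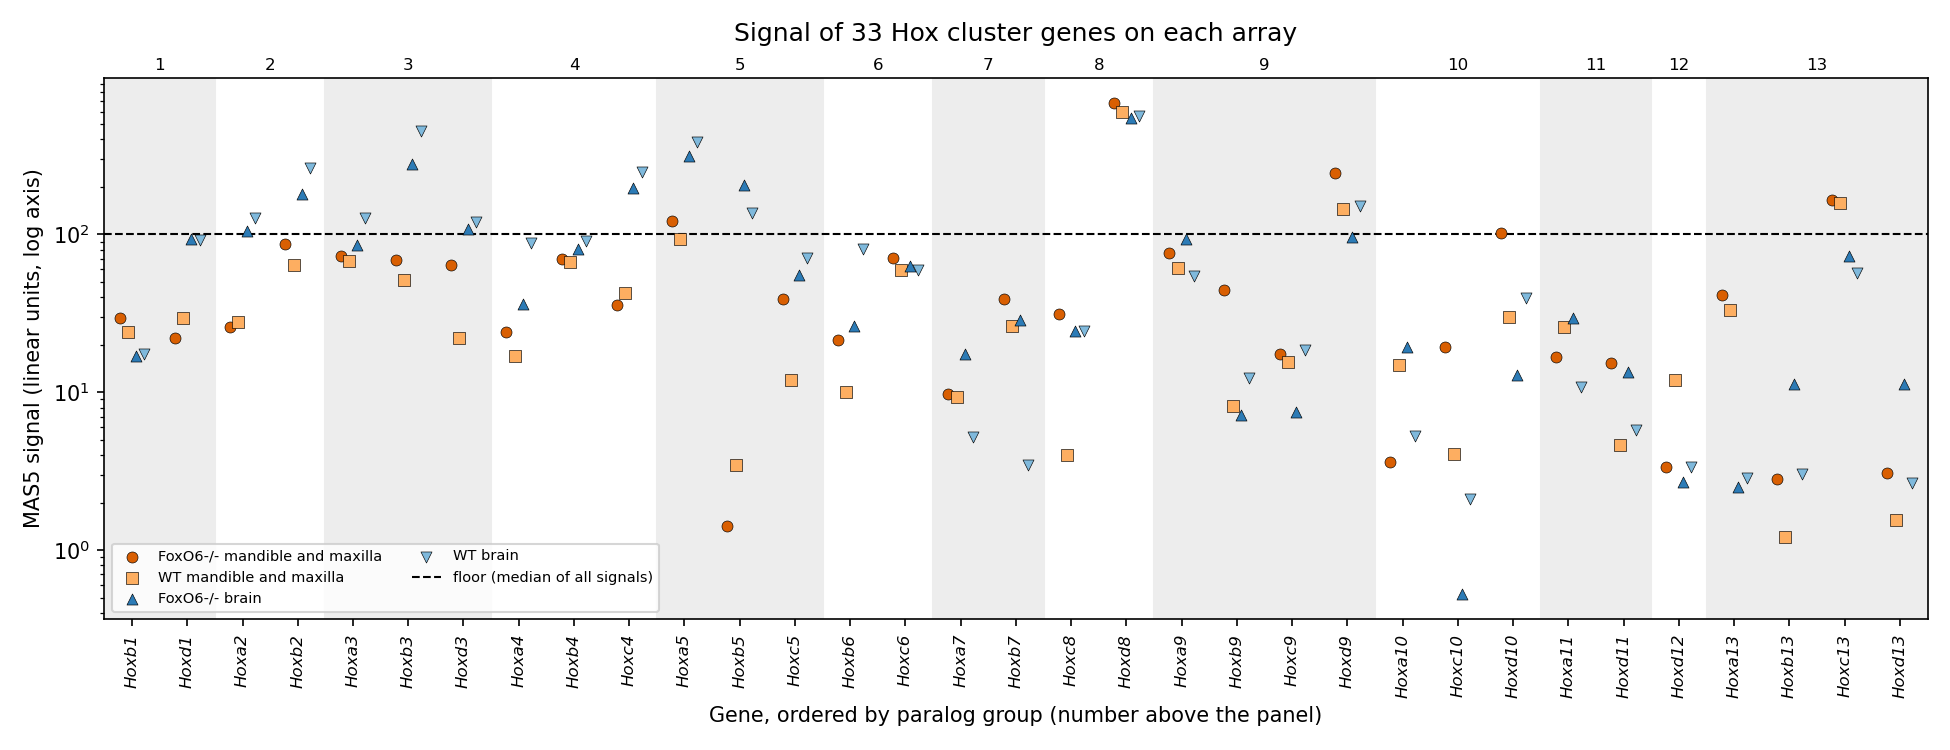
MAS5 signal (vertical axis, linear units on a log axis) of 33 Hox genes ordered by paralog group on each of the 4 arrays, 1 point per array, with the floor as a dashed line. Brain points lie above mandible and maxilla points for 12 of 13 genes of groups 1 to 5, most genes of groups 6 to 13 lie below the floor, and Hoxd8 is high on all arrays.

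To compare the tissues, limma was fitted on log2 signals of all 18193 genes with tissue and genotype as terms, so that the tissues are compared within each genotype. A gene's own error is how far its tissue difference varies between the genotypes, with 1 residual degree of freedom. The fit moderates this error toward the variance of all genes with a similar mean signal. The SE and p-values therefore do not measure the spread of a single gene alone. In this fit Hoxb3, Hoxc4, Hoxa5 and Hoxb5 passed an adjusted p under 0.05 (Benjamini-Hochberg), all higher in brain. They are 4 of 33, or 12.1%, where 8.72% of all genes were called higher in brain and 7.10% higher in mandible and maxilla. The share of Hox genes called is therefore close to that of all genes. Of the calls over all genes 44.9% were higher in mandible and maxilla, and 34.7% after median centring. No Hox gene was called higher in mandible and maxilla, where 2 had an unadjusted p under 0.05 in limma. The median log2 ratio of mandible and maxilla over brain was -0.33 over the 33 Hox genes, of which 20 were below 0, and 0.07 over all genes, of which 45.5% were. It was -1.60 in groups 1 to 5 and 0.21 in groups 6 to 13. Fewer cells that use a gene and less RNA of it per cell cannot be told apart in such bulk RNA.

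**Figure D3:**
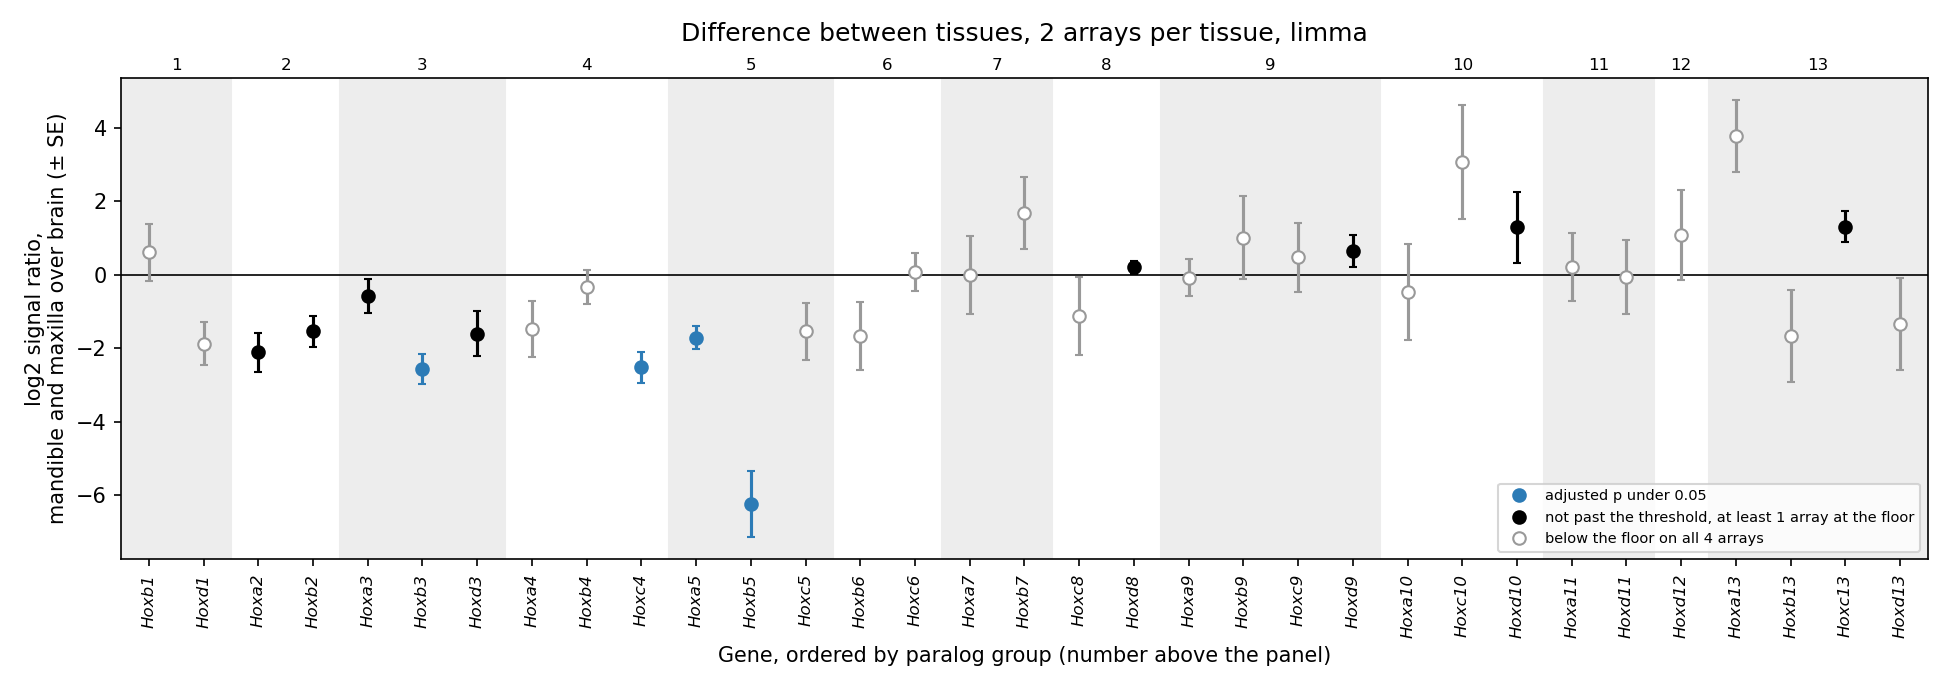
Log2 ratio of the signal, mandible and maxilla over brain (vertical axis, log2 scale), of 33 Hox genes ordered by paralog group, from limma on 2 arrays per tissue. Bars are SE, blue points have an adjusted p under 0.05 and open points were below the floor on all 4 arrays. The 4 blue points lie between -1.70 (Hoxa5) and -6.24 (Hoxb5).

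Of the group 2 genes, Hoxa2, which gives the second arch its identity, had 106 in FoxO6-/- and 127 in WT brain against 26.1 and 27.7 in mandible and maxilla. The tissues did not overlap, and the log2 ratio of -2.11 (SE 0.54) had an adjusted p of 0.0561 in limma, just outside the threshold. Hoxb2, which acts downstream of Hoxb1 in the hindbrain, had 179 and 264 in brain and 87.4 and 64.4 in mandible and maxilla, with a log2 ratio of -1.54 (SE 0.42) and an adjusted p of 0.0658. Neither gene reached the floor in mandible and maxilla.

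In group 3, Hoxb3, a gene of the posterior hindbrain, had 280.4 in FoxO6-/- and 451 in WT brain and 69.3 and 51.5 in mandible and maxilla. The brain arrays were 5.95-fold higher (log2 ratio -2.57, SE 0.41, adjusted p = 0.0128 from limma), and at least 3.53-fold higher when the dim tissue is set at the floor, as for the other lower bounds given here. These bounds use the geometric mean of both arrays of the brighter tissue. They allow for no spread between its arrays, and a single array can lie below them. Hoxd3, used in the neck vertebrae, had 109 and 119 in brain and 63.9 and 22.1 in mandible and maxilla, with an adjusted p of 0.156. Hoxa3, needed for thymus, parathyroid and thyroid, had 85.6 and 127 against 73.5 and 67.6, a log2 ratio of -0.57 (SE 0.47) and an adjusted p of 0.488. Its mean over the arrays, 88.5, was below the floor, as were those of its 3 other probe sets. Of these, a less specific one had 46.5 and 139 in brain and 30.8 and 11.8 in mandible and maxilla (log2 ratio -2.08, SE 0.87). The others had log2 ratios of -0.11 and -0.72. A dimmer Hoxb3 probe set had a mean signal of 40.0, also below the floor, with 92.6 and 25.2 in brain and 11.8 and 30.5 in mandible and maxilla, which overlap.

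Of the group 4 genes, which pattern the neck part of the axis, Hoxc4 was called. It had 198 in FoxO6-/- and 249 in WT brain and 35.9 and 42.3 in mandible and maxilla. The brain arrays were 5.70-fold higher (log2 ratio -2.51, SE 0.42, adjusted p = 0.0155 from limma), and at least 2.21-fold higher against the floor. Hoxa4 and Hoxb4 were below the floor on all arrays. Hoxb4, known for its action in blood stem cells, had 81.3 and 91.1 in brain and 70.2 and 66.5 in mandible and maxilla, and Hoxa4 had 36.4 and 88.6 against 24.2 and 17.0.

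In group 5, Hoxa5, needed for the trachea and lung and for neck and thoracic vertebrae, had 316 in FoxO6-/- and 384 in WT brain and 121 and 94.2 in mandible and maxilla. The brain arrays were 3.26-fold higher (log2 ratio -1.70, SE 0.32, adjusted p = 0.0207 from limma). This probe set is of a type that may match other transcripts. The gene-specific Hoxa5 probe set had 217 and 294 in brain and 7.24 and 7.30 in mandible and maxilla, at least 2.51-fold higher in brain against the floor (log2 ratio of the signals -5.12, SE 0.68). Both probe sets were thus higher in brain, and the only mandible and maxilla value of Hoxa5 above the floor, 121, was of the less specific one. Hoxb5 had 206 and 137 in brain and 1.42 and 3.48 in mandible and maxilla, the lowest log2 ratio of the 33 genes with -6.24 (SE 0.90, adjusted p = 0.00932 from limma). Since its mandible and maxilla values are far below the floor, the lower bound is 1.67-fold. Hoxc5 was below the floor on all arrays, with 55.1 and 70.7 in brain and 38.8 and 12.0 in mandible and maxilla.

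Arrays were then left out in turn in a fit on tissue alone, which with all 4 arrays called 6 Hox genes higher in brain. Without the WT brain array, which carries the brown fat markers, limma called 2 of them, Hoxb3 and Hoxb5. Brain is then 1 array, which is assumed to vary like the pair of mandible and maxilla arrays. Hoxc4 had an adjusted p of 0.0599 and a log2 ratio of -2.35, and its adjusted p ranged from 0.00686 to 0.129 over all alternatives. Hoxa5 had 0.0621 and -1.56, with a range from 0.00377 to 0.159. The adjusted p of Hoxb3 ranged from 0.00502 to 0.156, and that of Hoxb5 from 0.00187 to 0.281 with log2 ratios from -6.89 to -0.74. Without any other single array, the calls were Hoxb3, Hoxc4, Hoxa5 and Hoxb5 in each fit. With no variance trend 0 Hox genes and 0 of all genes were called by limma, while 10 Hox genes had an unadjusted p under 0.05 there.

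The 250 bases upstream of the start site are shown for Hoxa5 and Hoxc4, which were called, and for Hoxd8 and Hoxd9. Hoxd8 was above the floor on all arrays, and Hoxd9 on both mandible and maxilla arrays and 1 brain array. These genes have a sequence in the RefSeq promoter table (19 of the 33 genes do, in 21 windows). Sequences are from RefSeq, build GRCm38.p6, written 5' to 3' on the gene's strand. Capitals mark TTGCCATAATGG, the longest stretch that the Hoxa5 and Hoxc4 windows share, searched for after these genes were known to be called.
Hoxa5, chr6:52204588-52204837, minus strand: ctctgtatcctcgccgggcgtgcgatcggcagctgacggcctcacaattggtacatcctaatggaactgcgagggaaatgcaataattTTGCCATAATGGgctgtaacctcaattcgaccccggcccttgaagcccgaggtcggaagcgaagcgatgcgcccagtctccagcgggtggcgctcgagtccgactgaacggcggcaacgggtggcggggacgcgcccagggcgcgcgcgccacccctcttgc
Hoxc4, chr15:103034145-103034394, plus strand: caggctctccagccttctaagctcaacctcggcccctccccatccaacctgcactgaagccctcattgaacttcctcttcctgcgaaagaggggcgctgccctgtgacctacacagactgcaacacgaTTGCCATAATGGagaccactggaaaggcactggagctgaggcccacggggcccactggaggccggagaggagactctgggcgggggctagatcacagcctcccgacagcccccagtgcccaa
Hoxd8, chr2:74704365-74704614, plus strand: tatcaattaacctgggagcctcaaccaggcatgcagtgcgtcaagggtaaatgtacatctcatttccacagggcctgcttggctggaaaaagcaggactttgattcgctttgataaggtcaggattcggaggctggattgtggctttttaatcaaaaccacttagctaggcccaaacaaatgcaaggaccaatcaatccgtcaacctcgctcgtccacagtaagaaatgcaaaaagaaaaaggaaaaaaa
Hoxd9, chr2:74697513-74697762, plus strand: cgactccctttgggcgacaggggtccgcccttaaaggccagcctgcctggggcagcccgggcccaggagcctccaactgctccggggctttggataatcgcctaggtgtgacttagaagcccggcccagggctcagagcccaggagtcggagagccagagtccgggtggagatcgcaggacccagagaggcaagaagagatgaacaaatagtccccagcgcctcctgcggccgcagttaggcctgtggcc
On either strand TTGCCATAATGG was present in 2 of all 32851 windows of this length (0.00609%), those of Hoxa5 and Hoxc4 from which it was taken. The Hoxa5 window lies inside the annotated spans of Hoxa3 and Hoxaas3, and the Hoxc4 window inside those of Hoxc4 itself and Gm30528. The Hoxd8 window overlaps Gm38462 and the Hoxd9 window no annotated gene. The hexamer TGACAG, bound by MEIS and PKNOX proteins, was found on either strand in 2 of the 21 Hox windows (9.52%; Hoxa2 and Hoxa3) and in 15.9% of all windows. TGATTNAT, a combined site of PBX and HOX proteins, was found in the windows of Hoxa2 and Hoxd11, 9.52% of the Hox windows and 2.82% of all, and TATAAA in those of Hoxa10 and Hoxd13, 9.52% against 12.4%. The ratio of observed to expected CpG dinucleotides had a median of 0.687 in Hox windows and 0.374 in all windows, with 1.11 for Hoxa5 and 0.340 for Hoxc4. A match of letters is a description and was not tested against the signals.

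Group 1 was dim on all arrays. Hoxb1, which specifies the facial nerve segment of the hindbrain, had 17.1 and 17.6 in brain and 29.4 and 24.1 in mandible and maxilla. Hoxd1, known in mice from sensory neurons for pain, had 93.7 and 92.9 in brain and 22.0 and 29.6 in mandible and maxilla. The tissues did not overlap for Hoxd1, but all values were below the floor and the adjusted p from limma was 0.0934.

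Hoxd8, of the middle part of the HoxD cluster, was above the floor on all arrays, with 685 in FoxO6-/- and 595 in WT mandible and maxilla and 547 and 563 in brain. The log2 ratio of mandible and maxilla over brain was 0.20 (SE 0.17, adjusted p = 0.493 from limma). Its other probe set, of the less specific type, had 446 and 380 in mandible and maxilla and 523 and 507 in brain, with a log2 ratio of -0.32 (SE 0.19). The order of the tissues thus differed between the probe sets, although all 4 arrays were above the floor with each. The next gene in the cluster, Hoxd9, had 244 in FoxO6-/- and 146 in WT mandible and maxilla and 96.9 and 150 in brain, so that the tissues overlapped (log2 ratio 0.64, SE 0.44, adjusted p = 0.402).

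Hoxc13, which controls keratin genes of hair and nail, was the third Hox gene above the floor on both mandible and maxilla arrays. It had 164 in FoxO6-/- and 158 in WT mandible and maxilla and 73.4 and 57.1 in brain, at least 1.60-fold higher in mandible and maxilla. The log2 ratio of 1.32 (SE 0.41) had an adjusted p of 0.0939 in limma. Genes of hair and skin moved the same way, and all 9 measured were called higher in mandible and maxilla, among them the hair root sheath keratin Krt27 with 2661 and 2313 against 191 and 78.9 in brain. Their part in the Hoxc13 signal was not tested. Hoxa13, a gene of limb ends and the hind part of the body, had 41.4 and 33.2 in mandible and maxilla and 2.52 and 2.87 in brain, all below the floor, and an adjusted p of 0.0577.

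The remaining genes of groups 6 to 13 gave no tissue difference that passed the test. These groups pattern the trunk, the limbs and the tail end, and 16 of their 20 genes were below the floor on all arrays. Besides Hoxd8, Hoxd9 and Hoxc13, the exception was Hoxd10, with 102 in FoxO6-/- mandible and maxilla and 30.2, 12.9 and 39.7 on the WT mandible and maxilla, FoxO6-/- brain and WT brain arrays. Hoxa9 had between 54.5 and 94.0 and Hoxc6 between 59.2 and 70.7, whereas Hoxd12, Hoxb13 and Hoxd13 did not exceed 12.0 on any array. This Hoxc6 probe set is of the type that may match other transcripts. A gene-specific Hoxc6 probe set had 68.1 and 87.1 in brain and 29.6 and 34.6 in mandible and maxilla. Another had 93.8 and 7.22 in brain and 41.4 and 44.9 in mandible and maxilla, all below the floor.

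By cluster, the calls fell on HoxA (1 of 9 genes), HoxB (2 of 9) and HoxC (1 of 7), and 0 of 8 HoxD genes were called. The median log2 ratio of mandible and maxilla over brain was -0.46 in HoxA, -1.54 in HoxB, 0.07 in HoxC and 0.07 in HoxD. No test of a difference between clusters was made. Of 16 measured genes that flank the clusters and are not Hox genes, 11 were at or above the floor on both mandible and maxilla arrays and 1 was called, the sorting nexin gene Snx10, higher in brain with 1302 and 1023 against 695 and 515.

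The genotypes were compared within each tissue with 1 array on each side, which allows no test. In brain 10 Hox genes had a mean of the compared signals at or above the floor, 9 of them lower and 1 higher in FoxO6-/-. Among the 9, Hoxa3 (85.6 against 127 in WT) and Hoxd9 (96.9 against 150) were above the floor on the WT array only. They passed the filter through the array where they are high, so that the count of lower genes depends in part on the filter. None of the 10 differed by 2-fold, whereas of 12327 genes at or above the floor 1.13% were 2-fold higher and 2.03% 2-fold lower, together 3.16%. Among the 23 dimmer Hox genes 7 were 2-fold higher and 5 lower, where 41.6% of all genes below the floor differed by 2-fold either way, and no direction is read from them. The median log2 ratio of FoxO6-/- over WT was -0.30, and that of all these genes was 0.05, with 42.7% of them below 0. After median centring 7 of the 10 were lower, and the median of all genes moved to 0.20. Hoxb3 had the lowest ratio with -0.69, Hoxd9 had -0.64, Hoxa3 -0.57, Hoxb2 -0.56, Hoxc4 -0.33 and Hoxa5 -0.28. Hoxb5 had the opposite direction with 0.59, although it lies in the same cluster as Hoxb2 and Hoxb3. The dimmer Hoxb3 probe set, below the floor, had 1.88, against -0.69 for the brighter one. On the same pair of arrays all 9 brown fat genes at or above the floor were lower in FoxO6-/- brain, 6 by at least 2-fold, with a median of -3.09. All 12 neuronal genes were higher in FoxO6-/- brain, with a median of 0.37. The part of these tissues in the Hox ratios was not tested.

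In mandible and maxilla 4 Hox genes had a mean at or above the floor, and all were higher on the FoxO6-/- array, by less than 2-fold. Hoxa5 among them was above the floor on the FoxO6-/- array only, with 121 against 94.2 for the less specific probe set. Of all 12186 genes at or above the floor 0.591% were 2-fold higher and 1.69% lower, together 2.28%. Hoxd9 had a log2 ratio of 0.75 (244 against 146), Hoxa5 0.37, Hoxd8 0.20 and Hoxc13 0.05. The median was 0.29, and -0.01 over all genes at or above the floor, of which 51.3% were below 0. The gene-specific Hoxa5 probe set had a ratio of -0.01 at signals far below the floor. On the same pair of arrays all 10 neuronal genes at or above the floor were lower in FoxO6-/-, with a median of -0.78 and 3 by at least 2-fold, and 5 of 6 airway genes were lower too. Their part in the Hox ratios of mandible and maxilla was not tested. Of 29 dimmer Hox genes 10 lay above 2-fold and 3 lay past it in the other direction, whereas 42.8% of all genes with a mean below the floor differed by 2-fold, and no direction is read from these values. Hoxd10, chosen here for its size, had 102 against 30.2 with a mean below the floor.

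**Figure D4:**
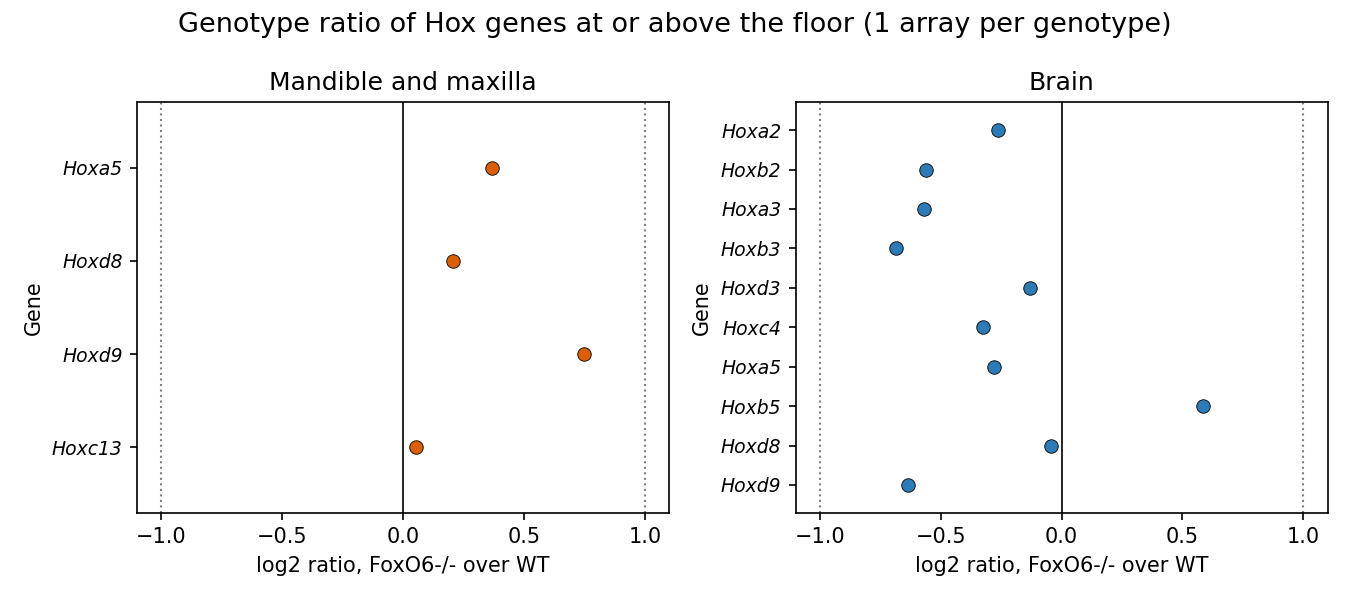
Genotype ratio on the log2 scale, FoxO6-/- over WT (horizontal axis, log2 scale), of the Hox genes with a mean at or above the floor in mandible and maxilla (left, 4 genes) and in brain (right, 10 genes), with 1 array per genotype and no error bars. Dotted lines mark 2-fold. All points lie within 2-fold, from -0.69 for Hoxb3 in brain to 0.75 for Hoxd9 in mandible and maxilla.

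Over both tissues, with mandible and maxilla and brain standing in for replicates of the genotype, no Hox gene passed an adjusted p under 0.05 for the genotype term in limma, and 0 of all 18193 genes did (0.00%). The lowest adjusted p of a Hox gene was 0.908, and 0 of the 33 had an unadjusted p under 0.05, against 4.85% of all genes. A genotype difference that differs between the tissues counts as error in this fit.

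The cofactors of HOX proteins were present in both tissues, and 2 of them were called higher in brain. Of 8 measured cofactor genes 6 were at or above the floor on both arrays of each tissue. Meis2 was the first of these, with 4088 in FoxO6-/- and 4026 in WT brain against 1171 and 1739 (log2 ratio -1.51, SE 0.17, adjusted p = 0.00427 from limma). Pbx3 was the other, with 4753 and 4047 against 2024 and 2397 and a log2 ratio of -0.99. Meis1, Pknox1 and Pknox2 had log2 ratios of -0.19, 0.17 and -0.25 that did not pass the test, and Pbx2 had 0.47 with an adjusted p of 0.0810. Pbx4 and Meis3 had means below the floor.

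Genes listed as upstream of Hox genes gave calls in both directions. Like those of the cofactors, the calls are read against 8.72% of all genes called higher in brain and 7.10% higher in mandible and maxilla. Of 16 genes of the retinoic acid pathway 1 was called higher in brain and 4 higher in mandible and maxilla. The enzyme gene Aldh1a1, which makes retinoic acid, was higher in brain with a log2 ratio of -0.66. Aldh1a3, which makes it too, and Cyp26a1, which breaks it down, were higher in mandible and maxilla with 1.50 and 1.87. Of 20 Polycomb and trithorax genes, which keep Hox genes silent or active, 1 was called, the Polycomb gene Bmi1 with 2692 and 2420 in brain against 1627 and 1357. Of 10 genes listed for hindbrain segmentation and other upstream regulation, Nr2f1 and Nr2f2 were higher in brain with -1.45 and -0.71. Egr2, a regulator of hindbrain segments that Schwann cells also use, and Vgll2 were higher in mandible and maxilla with 1.52 and 0.89. Whether Vgll2 acts upstream of Hox genes was not tested. Of 17 measured markers of brainstem and hindbrain neurons 3 were called higher in brain and 0 higher in mandible and maxilla. Isl1 was among the 3 called, with 1368 and 1233 against 961 and 618. Gata2 and Gata3 of the same list leaned the other way, with log2 ratios of mandible and maxilla over brain of 0.49 and 0.84. Of the 17 markers 6 were at or above the floor on both brain arrays.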

How the data were processed

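Mandible and maxilla and brain of FoxO6-/- and WT mice were measured with 1 array each, and mandible and maxilla RNA was pooled from 4 animals by the authors. The deposited intensity of each of 45101 probe sets is a linear MAS5 signal that the authors had normalized, and its trimmed mean was 500.0 on every array. No source used here gives the MAS5 version. Precision is limited by the number of arrays.

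Probe sets got their gene names from GEO's platform annotation, and 0 symbols changed when 34741 probe sets were matched to RefSeq (GRCm38.p6). Where a gene had several probe sets, that with the highest mean signal was used. The floor was the median signal without control probe sets, 101. Tissues were compared with limma 3.58.1 in R 4.3.3 (log2 signals, a variance trend, no filter, tissue and genotype as terms, 1 residual degree of freedom), and p-values were adjusted over 18193 genes (Benjamini-Hochberg). Genotypes were compared within a tissue by log2 ratios with no test, for genes with a mean of the compared signals at or above the floor. The fit was tested on simulated arrays. Tables and figures were made with Python 3.11.15, pandas 2.3.3 and matplotlib 3.10.9.

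The members and the gene lists were chosen with earlier results of these data known. By the rule for named genes every Hox gene and cofactor could be named, and from each other list the 2 highest and 2 lowest in the tissue ratio. Alternatives were no variance trend, a filter at the floor, a pseudocount of 64, low values raised to the floor, quantile normalization, median centring, the mean of all probe sets, no genotype term, no floor and a floor at the 75th percentile (524). Gene-specific probe sets only, every probe set on its own and leaving out an array were chosen after seeing the data.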

Additional observations from a re-analysis of the deposited data

Results flagged for a closer look

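Probe sets outside the choice of members carried signals above the floor. The antisense transcript Hoxb5os reached 175 on the WT brain array, with 57.5 on the FoxO6-/- brain array and 40.4 and 33.9 in mandible and maxilla. The antisense transcript Hoxd3os1 reached 153 on the FoxO6-/- mandible and maxilla array, with 77.3 in WT and 59.3 and 91.8 in brain. A probe set shared by Hoxd4 and Hoxd3 reached 108 on the FoxO6-/- brain array.

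For 3 genes with a mean at or above the floor in each tissue the genotype ratio had opposite signs in the tissues. Each side was 1 array, and the difference was not tested. The log2 ratio of FoxO6-/- over WT in mandible and maxilla minus that in brain was 1.38 for Hoxd9, 0.64 for Hoxa5 and 0.25 for Hoxd8.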

How the results depend on the processing

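Against 4 Hox genes called higher in brain and 0 higher in mandible and maxilla, limma called 0 with no variance trend and 0 with low values raised to the floor, settings under which 0 of all genes were called (2878 otherwise) but 10 and 5 Hox genes had an unadjusted p under 0.05. The mean of all probe sets called 1780 of all genes. With no genotype term 6 Hox genes were called higher in brain, Hoxa2 and Hoxb2 in addition, and 1, Hoxa13, higher in mandible and maxilla. Leaving out an array in turn, with no genotype term, gave between 2 and 4 Hox genes higher in brain, the 2 without the WT brain array, and 0 higher in mandible and maxilla. Under the filter, pseudocount, scaling and probe set alternatives the count was between 3 and 6 higher in brain. Hoxa2 was added by the pseudocount, quantile normalization and median centring, and Hoxd1 by the pseudocount. Hoxb3 was not called with the mean of all probe sets (log2 ratio -1.96, adjusted p = 0.0732 from limma). The filter at the floor left out Hoxb5. Hoxd8 changed sign to -0.061 with the mean of all probe sets. With no floor, 10 Hox genes were at least 2-fold higher and 3 lower in FoxO6-/- mandible and maxilla, and 7 higher and 5 lower in FoxO6-/- brain, against 0 in each case at the floor. The genotype term called 0 Hox genes under every alternative tried. Median centring moved the median tissue ratio of all genes from 0.07 to -0.06. The fit with both terms already compares the tissues within each genotype. Low signal limits the 21 Hox genes below the floor on all arrays, whose ratios are less certain.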
